A study of Homo sapiens with 24 samples.

Results

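Messenger RNA levels of 28 genes of cholesterol and fatty acid synthesis were followed in HUES6, an established line of human embryonic stem cells, over a short induction towards mesoderm. The genes were taken from a list of 29 symbols that was made by pathway membership, and 28 of them had a row among the 57820 genes of the deposited table. ACACA had none under its identifier in GENCODE 29 and is not analysed here. All 28 passed the filter on low values, with 19835 genes passing in all. Each library was labelled as a knockout (KO) of RBPMS, the gene of a protein that binds RNA, or as wild type (WT). KO and WT were each sampled at 0, 3, 6 and 48 h, with 3 libraries in each of the 8 groups and 24 in all. The 0 h groups were labelled as controls, and the later groups received the growth factor BMP4 at 1.5 ng/ml together with the GSK3 inhibitor CHIR at 1.5 µM, which activates WNT signalling. All groups were grown in FTDA medium, and all libraries were made with a stranded mRNA kit. The labels do not say how the KO line was made, how many clones it holds, or whether libraries of one group are separate cultures. The p-values therefore measure the spread between these libraries, which may be technical.

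Cells make cholesterol from acetyl-CoA through the mevalonate pathway to farnesyl pyrophosphate, and from there through squalene and lanosterol. The transcription factors SREBP-1 and SREBP-2, encoded by SREBF1 and SREBF2, switch these genes on when sterols in the endoplasmic reticulum are scarce. SCAP escorts them to the Golgi for activation, and INSIG proteins hold SCAP back when sterols are plentiful. SREBP-2 is best known for sterol synthesis genes and SREBP-1 for genes of fatty acid synthesis and desaturation.

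SREBPs are known to bind sterol regulatory elements in promoters, together with NF-Y, which binds CCAAT boxes, and SP1, which binds GC boxes. Windows from 250 bases before to 50 after the annotated start were available from RefSeq (GRCh38.p14) for 24 of the 28 genes, as 31 windows of 300 bases. ACAT2, FASN, FDFT1 and SQLE are named only. The sterol regulatory element TCACNCCAC, searched on both strands, was found in 1 of the 31 (3.23%), against 1.13% of the 35116 windows of all genes. That window belonged to SREBF2, where the element began 133 bases before the start. CCAAT was in 67.7% of the windows of these genes, against 34.6% of all windows, and GGGCGG, the GC box, was in 90.3%, against 45.0% of all windows. The E-box CACGTG was in 16.1% of their windows, against 7.26%, and CANNTG, which includes CACGTG, was in 54.8%, against 68.7%. A match is only a run of letters, and its absence says only that these letters were not in the window. The window of SREBF2 is shown as the one with the element. HMGCS1 and IDI1 are shown because they had the smallest adjusted p between KO and WT at 0 h among genes with a window. Each has further windows, and the one with the most CCAAT boxes was printed, a choice made after the counts were seen. CCAAT was found 0 times in the other window of HMGCS1, and 0 and 2 times in the other windows of IDI1. Capitals mark TCACNCCAC or CCAAT on either strand, ATTGG being the reverse complement of CCAAT.
SREBF2, chr22:41832855-41833154, plus strand: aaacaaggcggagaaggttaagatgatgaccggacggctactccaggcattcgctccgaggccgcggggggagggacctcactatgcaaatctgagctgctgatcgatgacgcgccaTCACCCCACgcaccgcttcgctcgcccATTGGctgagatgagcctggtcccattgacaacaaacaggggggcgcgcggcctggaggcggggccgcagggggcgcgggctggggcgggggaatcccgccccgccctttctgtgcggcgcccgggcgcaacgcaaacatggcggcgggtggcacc
HMGCS1, chr5:43313363-43313662, minus strand: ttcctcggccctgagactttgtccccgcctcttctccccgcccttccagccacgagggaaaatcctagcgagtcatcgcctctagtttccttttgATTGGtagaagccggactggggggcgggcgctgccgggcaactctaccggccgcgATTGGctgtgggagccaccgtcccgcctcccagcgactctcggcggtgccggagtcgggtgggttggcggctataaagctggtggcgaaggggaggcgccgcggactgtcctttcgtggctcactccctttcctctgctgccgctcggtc
IDI1, chr10:1048837-1049136, minus strand: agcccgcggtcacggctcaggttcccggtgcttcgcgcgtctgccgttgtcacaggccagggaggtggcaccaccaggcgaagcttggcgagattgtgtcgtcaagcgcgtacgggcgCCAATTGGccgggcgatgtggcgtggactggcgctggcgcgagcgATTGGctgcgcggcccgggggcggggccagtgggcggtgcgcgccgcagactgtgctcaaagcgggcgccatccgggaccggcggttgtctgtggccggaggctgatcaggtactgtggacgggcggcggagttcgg
In the windows shown, the CCAAT box of SREBF2 began 106 bases before the start. Those of HMGCS1 began 155 and 100 bases before it, and those of IDI1 132, 129 and 87 bases before it, the first pair of IDI1 overlapping.

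Levels are given as CPM, reads of a gene scaled so that all libraries have the same total, with no division by length. Levels were compared between libraries and not between genes. The libraries held 29896358 to 50451908 reads. Library 1 of WT 0 h stood apart from its group, with correlations of 0.964 and 0.969 across genes with the other WT 0 h libraries, which had 0.995 with each other. Its nearest library was a KO one, library 3 of KO 0 h (0.982). Library 3 of KO 3 h (at most 0.984) and library 3 of WT 48 h (at most 0.988) also stood apart from their mates. The nearest library of each was, however, in its own group. Results that rest on these libraries are given with and without them. RBPMS mRNA was at 158, 153 and 153 CPM in KO and 155, 121 and 130.2 CPM in WT at 0 h, so that its level did not check the genotype labels. The imprinted RNA MEG3 averaged 929, 0.0717, 0.0718 and 236 CPM in KO at 0, 3, 6 and 48 h, against 727, 135, 91.4 and 100.2 CPM in WT. The imprinted gene PEG3 was at no more than 0.0428 CPM in any KO library. In WT it was at 13.8 CPM in library 1 of WT 0 h and at 0 in libraries 2 and 3, and at 28.4 to 45.4 CPM at the later hours. With libraries parted in this way, hour of induction and culture cannot be told apart in the comparisons with 0 h. The 6 markers of pluripotent stem cells, POU5F1 and SOX2 among them, summed to 4514 to 8482 CPM in all libraries, and 6 primitive streak and mesoderm markers to 1019 to 1143 CPM in KO and 1647 to 1840 CPM in WT at 48 h, against at most 5.67 CPM at 0 h. The 4 hepatocyte markers, including ALB, summed to at most 0.516 CPM in any library, and TTR was at 0 in all 24.

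Most of the 28 genes were lowest in KO at 0 h. That group had the lowest mean of the 8 groups for 21 of the 28 and the highest for 2. The highest mean was in WT at 6 h for 9 and in WT at 48 h for 8. How many of all genes had their lowest mean in KO at 0 h is not given here. Summed over the 28 genes, the level was 2940.3 to 3008 CPM in KO at 0 h, against 3800.5 to 4296 CPM in WT at 0 h. At 3 h the sum was 4496 to 5106 CPM in KO, against 4783 to 4879 CPM in WT, with library 3 the highest of KO. At 6 h it was 4801 to 4855 CPM in KO, against 5197 to 5293 CPM in WT, and at 48 h 4789 to 4854 CPM in KO, against 5037 to 5599 CPM in WT. The sums of KO and WT overlapped at 3 h through that library alone, the other KO libraries of 3 h, at 4496 and 4562 CPM, lying below all WT libraries. At the other hours all KO sums lay below all WT sums.

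**Figure D1:**
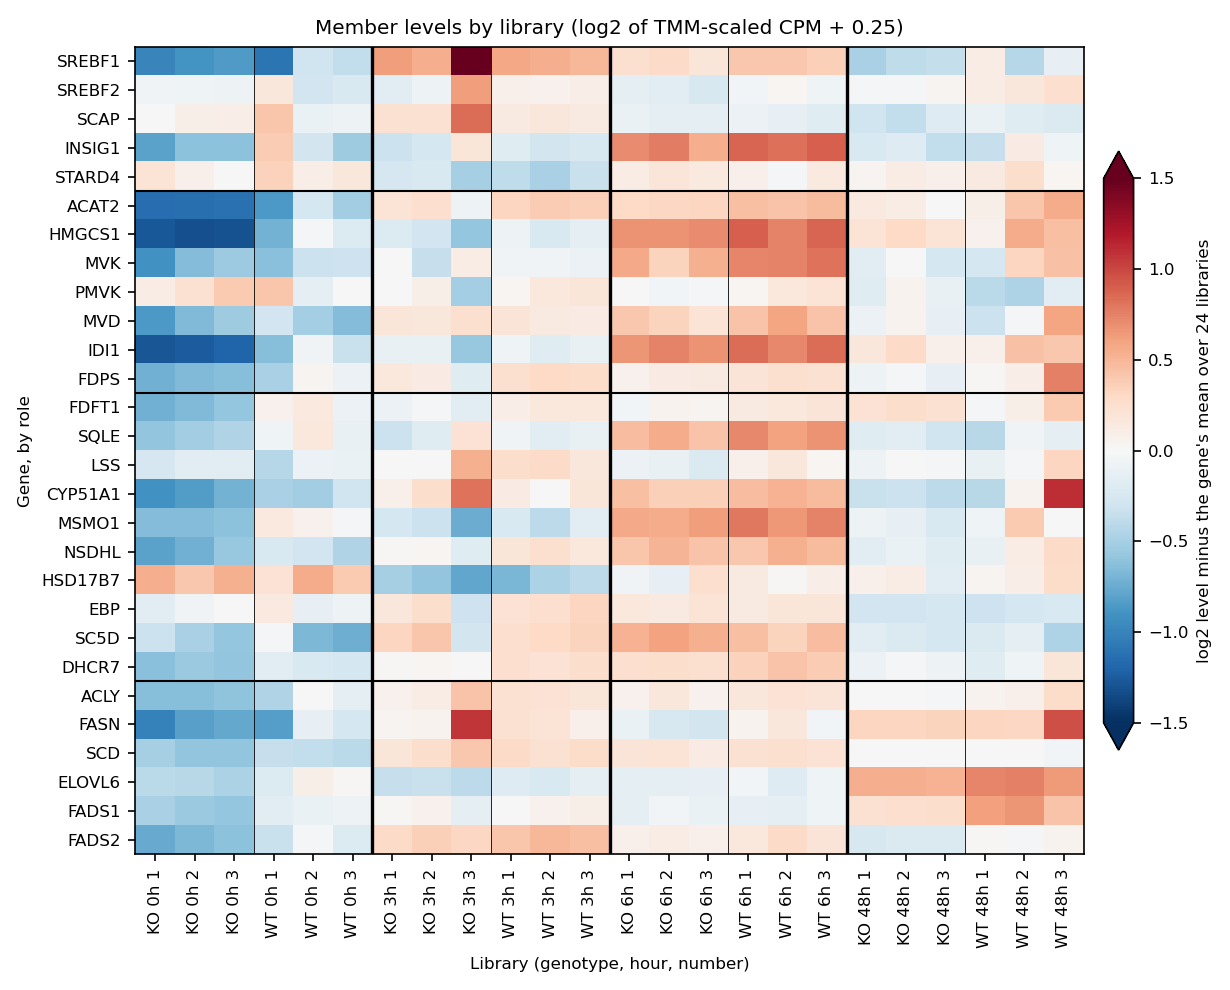
Level of each of the 28 genes (rows, ordered by role from regulators at the top through the mevalonate and sterol pathways to fatty acid genes) in each of the 24 libraries (columns, KO left of WT at each hour), as log2 of TMM-scaled CPM + 0.25 minus the mean of the gene over the libraries, with colours saturating at the ends of the scale. KO at 0 h is the lowest group for 21 of the 28 genes, and library 3 of KO 3 h is above its mates for SREBF1 and FASN, as library 3 of WT 48 h is for CYP51A1 and FASN.

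At 0 h, before induction, 14 of the 28 genes were lower in KO than in WT and none was higher, by limma at an adjusted p under 0.05. Over all genes 15.3% were called, 6.52% lower and 8.76% higher. The median log2 difference of the 28 was -0.38, against 0.01 over all genes, and 23 of the 28 differences were negative. In libraries of whole cultures, fewer cells of a kind and less RNA per cell cannot be told apart. In 16 of the 28 all KO libraries lay below all WT libraries, against 15.6% of all genes. The calls covered 4 of 7 mevalonate pathway genes, 5 of 10 sterol pathway genes, 4 of 6 fatty acid genes and 1 of 5 regulators.

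In the mevalonate pathway the largest difference was that of HMGCS1, which makes HMG-CoA. HMGCS1 was at 162, 156 and 159 CPM in the KO libraries, against 245, 399 and 356 CPM in the WT libraries. All KO libraries lay below all WT libraries, and library 1 of WT was the lowest of WT. The log2 difference was -0.98 ± 0.13 (SE, n = 3 each; limma adjusted p = 2.91e-05), and without library 1 of WT it was -1.22. IDI1, the isomerase that makes the starter unit of isoprenoids, was at 36.4, 36.9 and 38.6 CPM in KO, against 58.2, 89.4 and 73.6 CPM in WT. Its groups did not overlap either, with a log2 difference of -0.90 ± 0.13 (adjusted p = 4.26e-05) and of -1.09 without library 1 of WT. ACAT2, the cytosolic thiolase of the first step, averaged 44.9 ± 0.467 CPM in KO and 71.04 ± 15.3 CPM in WT (SD, n = 3 each; log2 difference -0.58, adjusted p = 0.00187). FDPS, which makes farnesyl pyrophosphate, averaged 117 ± 3.72 CPM in KO and 173 ± 33.02 CPM in WT (log2 difference -0.50, adjusted p = 0.0191). The FDPS call ended without KO library 1 or 2 or WT library 2 or 3 (adjusted p up to 0.123), and reads of its 8 named pseudogenes may be mixed with its own. The 2 kinases MVK (-0.28) and PMVK (0.15) and the decarboxylase MVD (-0.20) had log2 differences that did not pass the test.

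FDFT1, the squalene synthase at the branch into sterols, had the smallest adjusted p of the 28 genes at 0 h. It was at 177, 184 and 197 CPM in KO, against 312, 338 and 287 CPM in WT, with no overlap. Its log2 difference was -0.69 ± 0.09 (adjusted p = 1.37e-05), and -0.72 without library 1 of WT. MSMO1, which oxidises the methyl groups of lanosterol derivatives, was at 80.3, 79.97 and 82.8 CPM in KO, against 144, 138 and 129.7 CPM in WT. The KO libraries lay close together below all WT libraries, with a log2 difference of -0.70 ± 0.11 (adjusted p = 0.000176). SQLE, the squalene epoxidase, was at 79.4, 82.7 and 88.1 CPM in KO, against 117, 139 and 115 CPM in WT (log2 difference -0.51, adjusted p = 0.00288). NSDHL, a sterol dehydrogenase, averaged 23.4 ± 2.10 CPM in KO and 31.4 ± 2.19 CPM in WT (log2 difference -0.37, adjusted p = 0.00955; 0.0601 without KO library 1). DHCR7, a reductase of the last steps, averaged 51.7 ± 1.23 CPM in KO and 69.7 ± 1.89 CPM in WT (log2 difference -0.37, adjusted p = 0.00137). The other 5 sterol genes, LSS, CYP51A1, HSD17B7, EBP and SC5D, were not called, with log2 differences between -0.38 for CYP51A1 and 0.10 for HSD17B7. The lanosterol synthase LSS was at 72.96, 77.3 and 78.5 CPM in KO, against 66.4, 85.7 and 85.05 CPM in WT, with overlapping groups.

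Among fatty acid genes, FADS1, FADS2, ELOVL6 and ACLY were lower in KO. FADS2, which takes the first desaturation step of polyunsaturated fatty acids, was at 159, 168 and 176 CPM in KO, against 218, 274 and 244 CPM in WT (log2 difference -0.49 ± 0.07, adjusted p = 7.1e-05). FADS1, which takes a later one, was at 135, 128 and 128 CPM in KO, against 174, 185 and 189 CPM in WT (log2 difference -0.43 ± 0.07, adjusted p = 0.00024). Neither gene overlapped between KO and WT. The genes lie on opposite strands of chromosome 11 (GRCh38, FADS1 at chr11:61799625-61829318 and FADS2 at chr11:61792980-61867354) and overlap, and the sources used here do not say whether counting used the strand, so that their reads may be shared. ELOVL6, which elongates palmitate, averaged 84.4 ± 1.97 CPM in KO and 116 ± 12.9 CPM in WT (log2 difference -0.40, adjusted p = 0.000593). ACLY, which supplies cytosolic acetyl-CoA, averaged 273 ± 4.19 CPM in KO and 383 ± 62.8 CPM in WT (log2 difference -0.42, adjusted p = 0.00598; 0.056 without WT library 2). The fatty acid synthase gene FASN was at 162, 185 and 194 CPM in KO, against 190.3, 315 and 286 CPM in WT, and was not called (log2 difference -0.47, adjusted p = 0.136). Library 1 of WT lay within the KO range, and without it FASN had a log2 difference of -0.71 (adjusted p = 0.00719). SCD, the desaturase that makes oleate, had no overlap but was not called (log2 difference -0.19, adjusted p = 0.0776), and was called without library 1 of WT (-0.21, adjusted p = 0.0253).

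Of the regulators, INSIG1 alone was called at 0 h. It was at 22.03, 25.01 and 25.3 CPM in KO, against 51.5, 33.3 and 27.8 CPM in WT, and library 1 was the highest of WT. Its log2 difference was -0.53 ± 0.16 (adjusted p = 0.0292), but -0.31 with adjusted p = 0.062 without library 1 of WT, and the call also ended without any 1 of the KO libraries (adjusted p of 0.0535 to 0.12). SREBF1 was at 22.8, 24.2 and 25.4 CPM in KO, against 21.8, 38.7 and 36.8 CPM in WT, where library 1 was the lowest of all 6. It was not called with that library (log2 difference -0.33, adjusted p = 0.267) and was called without it (-0.61, adjusted p = 0.00583). SREBF2 was at 237, 233 and 235 CPM in KO, against 283, 211 and 219 CPM in WT (log2 difference 0.05), and SCAP (-0.02) and the sterol carrier STARD4 (-0.11) had overlapping groups as well.

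**Figure D2:**
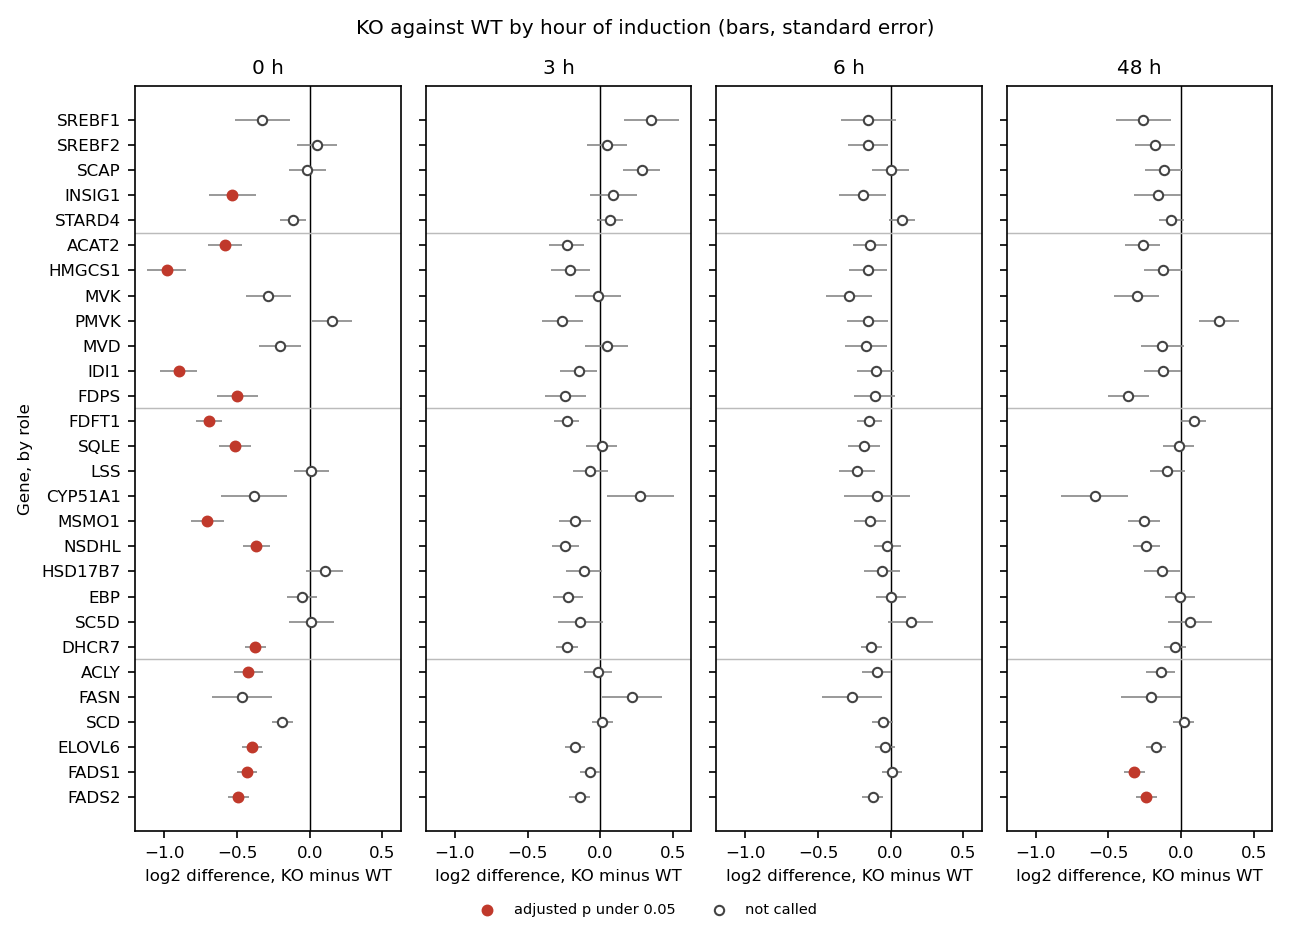
Log2 difference of KO minus WT for each of the 28 genes (rows, by role) at 0, 3, 6 and 48 h (panels), with bars for the standard error of the limma fit and filled points for an adjusted p under 0.05. At 0 h 14 points are filled, all left of 0, down to -0.98 for HMGCS1, and at 48 h FADS1 and FADS2 are filled.

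The 0 h result depended on how the spread was estimated and on library 1 of WT. Counts under the other settings below are given without the share over all genes. When the spread was estimated from the KO and WT libraries of 0 h only, FDFT1 and MSMO1 kept their calls and the other 12 did not (adjusted p of 0.0583 to 0.275), with the same log2 differences. Of the 28 genes, 17 were called without library 1 of WT and 10 with it as the only WT library of 0 h, all lower in KO. Without the 3 libraries that stood apart 23 were called, of which 20 were lower in KO and 3 higher, namely SREBF2 (0.16, adjusted p = 0.00449), PMVK (0.28, adjusted p = 0.00536) and SC5D (0.21, adjusted p = 0.00529). With that library alone HMGCS1 was -0.58 and IDI1 -0.59, and ACAT2, FDPS, ACLY and ELOVL6 were not called. Mitochondrial transcripts took 6.67% to 7.36% of reads in KO at 0 h, against 4.64%, 7.22% and 7.36% in WT, and the 6 pluripotency markers summed to 8194 to 8482 CPM in KO, against 6846 to 7936 CPM in WT. LIN28A, TDGF1, DPPA4 and NANOG had higher means in KO. POU5F1 and SOX2 had lower ones, at 1974 and 329 CPM in KO, against 2048.5 and 362 CPM in WT. The 4 fibroblast and feeder markers, of which DCN was at 0 in all 6 libraries, summed to 508 to 541 CPM in KO, against 403 to 805 CPM in WT. Of these, COL1A1 was at 264, 282 and 280.3 CPM in KO, against 154, 127 and 158 CPM in WT, and THY1 at 244, 252 and 261 CPM in KO, against 651, 278 and 245 CPM in WT. The part of these differences in the result was not tested.

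At 3 h and 6 h none of the 28 genes was called between KO and WT, against 2.78% of all genes at 3 h and 2.45% at 6 h. At an unadjusted p under 0.05, 6 of the 28 passed at 3 h and 0 at 6 h. Shares of all genes at that threshold, and under the other settings at these hours, are not given here. DHCR7 was the 1 gene called at 3 h without library 1 of WT 0 h (-0.25), without library 3 of WT 48 h and by DESeq2 on the recovered reads, and without the 3 libraries that stood apart 5 genes were called at 3 h and 4 at 6 h, all lower in KO. HMGCS1 at 3 h was at 330.3, 308 and 251.3 CPM in KO, against 360.0, 321 and 342 CPM in WT, and at 6 h at 591, 577 and 605 CPM in KO, against 698, 615 and 674 CPM in WT. The groups overlapped at 3 h and not at 6 h, where the KO libraries were all slightly lower (log2 difference -0.16, adjusted p = 0.816). At 6 h 24 of the 28 differences were negative with a median of -0.13, against 0.01 over all genes. In 19 of the 28 all KO libraries lay below all WT libraries, against 14.9% of all genes. Estimating the spread from the 6 h libraries only, 8 genes were called, all lower in KO.

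At 48 h FADS1 and FADS2 were lower in KO and the other 26 genes were not called, against 11.9% of all genes called and 5.07% called lower. FADS1 was at 231, 233 and 237 CPM in KO, against 312, 320.4 and 260.4 CPM in WT (log2 difference -0.32 ± 0.07, adjusted p = 0.00294). FADS2 was at 238, 239.5 and 241 CPM in KO, against 291, 284 and 284 CPM in WT (log2 difference -0.24 ± 0.07, adjusted p = 0.03). Neither overlapped, but the FADS2 call ended when any 1 of the 6 libraries of 48 h was left out, and likewise for library 2 of WT 3 h, libraries 1 and 2 of WT 6 h and libraries 1 and 3 of KO 6 h (adjusted p of 0.0517 to 0.189), and the FADS1 call ended without KO 48 h library 1 (adjusted p = 0.059). Without WT 48 h library 1, 6 of the 28 were called, FADS1 together with ACAT2, MVK, FDPS, CYP51A1 and NSDHL, all lower in KO. CYP51A1, the lanosterol demethylase, was at 11.1, 11.1 and 10.6 CPM in KO, against 10.7, 14.9 and 29.9 CPM in WT, where library 3 was the highest (log2 difference -0.60, adjusted p = 0.0999). It was called by edgeR (adjusted p = 0.0392) and DESeq2 (adjusted p = 0.0178) on the recovered reads. Without the 3 libraries that stood apart, 7 genes were called at 48 h, of which 5 were lower in KO and 2 higher, PMVK (0.36, adjusted p = 0.00137) and FDFT1 (0.22, adjusted p = 0.00578). Shares over all genes with these libraries left out are not given here. At 48 h the pluripotency markers summed to 5780 to 5977 CPM in KO, against 4514 to 4641 CPM in WT. The 4 definitive endoderm markers summed to 155 to 178 CPM in KO, against 85.4 to 106 CPM in WT. CXCR4 and FOXA2 were higher in KO without overlap. SOX17, at 38.8 to 42.6 CPM in KO and 27.8 to 45.9 CPM in WT, overlapped. GSC did so too, at 30.7 to 36.1 CPM in KO and 22.3 to 34.5 CPM in WT. The 4 neuroectoderm markers summed to 155 to 179.7 CPM in KO, against 104 to 129 CPM in WT. Of the latter, PAX6 and SOX1 were at no more than 0.0407 CPM in KO and at 0 in WT. ZIC1 was at no more than 0.225 CPM in KO and 0.295 CPM in WT. The neuroectoderm sums were thus carried by OTX2 alone and do not show a difference across that list. The part of these differences in the result was not tested.

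Over induction 19 to 22 of the 28 genes rose in KO and 14 to 18 in WT. In KO 21, 22 and 19 of the 28 genes were higher and 3, 1 and 2 lower at 3, 6 and 48 h than at 0 h. Over all genes 65.7%, 68.5% and 52.8% were called in KO, with 33.1%, 33.4% and 25.4% higher and 32.6%, 35.1% and 27.4% lower. In WT 14, 18 and 15 genes were higher and 3, 1 and 2 lower. Over all genes 55.7%, 62.1% and 53.3% were called in WT, with 28.6%, 31.1% and 26.8% higher and 27.1%, 31.0% and 26.5% lower. The median log2 change of the 28 in KO was 0.61, 0.78 and 0.52 at 3, 6 and 48 h, and in WT 0.32, 0.53 and 0.32, while the median over all genes lay between -0.02 and 0.01. In KO 17 genes were higher at all 3 later hours, and in WT 9, which were ACAT2, MVD, FDPS, CYP51A1, NSDHL, DHCR7, ACLY, SCD and FADS2. The share of all genes higher at all 3 later hours is not given here. The WT calls of FDPS at 3 h and 6 h were lost when library 1 of WT 0 h was left out (adjusted p = 0.108 and 0.204), and that of CYP51A1 at 3 h had an adjusted p of 0.0488, against 0.0548 by edgeR and 0.0523 by DESeq2 on the recovered reads. SREBF2, STARD4, PMVK and HSD17B7 were called higher at no hour in either genotype. The comparisons of a genotype share its 0 h libraries. Mitochondrial transcripts took 2.87% to 5.24% of reads in KO after 0 h, against 6.67% to 7.36% at 0 h, and 2.46% to 4.66% in WT after 0 h, against 4.64% to 7.36% at 0 h. The 4 amnion and trophoblast markers summed to 0.157 to 0.177, 19.7 to 25.8, 9.60 to 11.9 and 0.306 to 0.638 CPM in KO at 0, 3, 6 and 48 h, against 0.129 to 0.524, 17.1 to 18.9, 7.21 to 8.15 and 0.623 to 0.75 CPM in WT. GATA3 and TFAP2A carried the rise, with means at 3 h of 6.62 and 15.1 CPM in KO and 6.36 and 11.5 CPM in WT. VTCN1 was at no more than 0.125 CPM and CGA at no more than 0.0771 CPM in any library. The part of mitochondrial transcripts or of these markers in the changes of the 28 genes was not tested.

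HMGCS1, IDI1 and MVK of the mevalonate pathway peaked at 6 h in both genotypes. HMGCS1 was 1.98 higher on the log2 scale at 6 h than at 0 h in KO (adjusted p = 1.12e-11) and 1.15 higher in WT (adjusted p = 1.22e-07). At 48 h it was 1.53 higher than at 0 h in KO and 0.67 higher in WT. At 3 h its change was 0.94 in KO (adjusted p = 1.86e-06) and 0.16 in WT (adjusted p = 0.315), the WT libraries of 3 h, at 360.0, 321 and 342 CPM, lying within the range of those at 0 h. IDI1 followed the same order, with means of 37.3 ± 1.18, 71.98 ± 12.8, 136 ± 2.61 and 105 ± 7.36 CPM in KO at 0, 3, 6 and 48 h, against 73.7 ± 15.6, 79.03 ± 3.36, 147 ± 7.86 and 116 ± 14.7 CPM in WT (SD, n = 3 each). MVK, the mevalonate kinase, was also highest at 6 h, at 11.02, 9.16 and 10.7 CPM in KO, against 3.997, 4.84 and 5.25 CPM at 0 h, and at 12.4, 12.4 and 13.03 CPM in WT, against 5.07, 6.44 and 6.47 CPM at 0 h. The libraries of 6 h and 0 h did not overlap in either genotype. ACAT2 was higher early and stayed so, with log2 changes of 1.26, 1.44 and 1.22 at 3, 6 and 48 h in KO and 0.91, 1.00 and 0.90 in WT, all called. PMVK went the other way, with log2 changes of -0.38, -0.27 and -0.32 in KO, called at 3 h, and of 0.03, 0.05 and -0.43 in WT, called at 48 h. The KO call of PMVK was lost when library 3 of KO 3 h (adjusted p = 0.192) or of KO 0 h (adjusted p = 0.0946) was left out, and its WT call when library 1 of WT 0 h or library 2 of WT 48 h was (adjusted p of 0.0902 and 0.0597).

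Sterol pathway genes took several courses. MSMO1 averaged 81.01 ± 1.53, 91.1 ± 16.2, 179 ± 5.91 and 119 ± 6.30 CPM in KO, against 137 ± 7.04, 102 ± 8.21, 199 ± 11.2 and 146 ± 27.9 CPM in WT. In WT it was lower at 3 h (log2 change -0.33, adjusted p = 0.0164; 0.0907 without WT 3 h library 2) and higher at 6 h (0.67), and in KO it was not called at 3 h (0.20) and higher at 6 h (1.23). FDFT1 was higher at each hour in KO, by 0.56, 0.67 and 0.89 on the log2 scale, and was called at no hour in WT, where its changes were 0.10, 0.13 and 0.11. Its WT libraries held 287 to 393 CPM at all hours, whereas the KO libraries held 177 to 197 CPM at 0 h and 252 to 364 CPM later. NSDHL and DHCR7 were higher at every hour in both genotypes, with log2 changes from 0.20 (DHCR7, WT at 48 h, lost when library 3 of WT 48 h or either of libraries 2 and 3 of WT 0 h was left out) to 1.14 (NSDHL, KO at 6 h). SC5D, a sterol desaturase, was higher at 3 h and 6 h, by 0.62 and 1.01 in KO and 0.76 and 0.89 in WT, and was not called at 48 h in either. HSD17B7, a sterone reductase, was the sterol gene that fell most. In KO it was at 6.56, 6.07 and 5.29 CPM at 3 h, against 14.2, 12.8 and 14.2 CPM at 0 h. In WT it was at 5.73, 6.66 and 7.03 CPM at 3 h, against 11.6, 14.98 and 13.4 CPM at 0 h. The libraries of 3 h lay below all of 0 h in both genotypes (log2 change -1.12 in KO and -0.91 in WT, adjusted p = 4.9e-08 and 1.74e-06). It has 2 named pseudogenes, whose reads may be mixed with its own.

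Fatty acid genes split by hour. FADS2 was highest at 3 h, at 318, 330.0 and 319.6 CPM in KO, against 159, 168 and 176 CPM at 0 h (log2 change 1.00, adjusted p = 4.78e-11), and at 347, 367 and 354 CPM in WT, against 218, 274 and 244 CPM at 0 h (0.64, adjusted p = 9.94e-08). SCD was higher at all 3 hours, with log2 changes of 0.84, 0.74 and 0.56 in KO and 0.64, 0.60 and 0.35 in WT. ELOVL6 and FADS1 were highest at 48 h in both genotypes. ELOVL6 was then at 174, 172 and 170.0 CPM in KO, against 86.1, 84.99 and 82.3 CPM at 0 h, and at 203, 206 and 181 CPM in WT, against 101.4, 126 and 120.5 CPM at 0 h. No library of 48 h overlapped those of 0 h (log2 change 0.97 in KO and 0.74 in WT). FASN had log2 changes of 1.26, 0.66 and 1.19 in KO, all called, and of 0.57, 0.46 and 0.93 in WT, called at 3 h and 48 h. In WT, the 3 h call of FASN was lost when library 1 of WT 0 h (adjusted p = 0.161) or either of libraries 1 and 2 of WT 3 h was left out, and KO 3 h library 3 held 665 CPM, against 327 to 329 CPM in its mates.

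SREBF1 and INSIG1 were the regulators called higher at more than 1 hour in KO. SREBF1 was highest at 3 h, at 68.7, 64.3 and 124 CPM in KO, against 22.8, 24.2 and 25.4 CPM at 0 h, and at 66.6, 64.2 and 61.98 CPM in WT, against 21.8, 38.7 and 36.8 CPM at 0 h. Library 3 of KO 3 h was the highest of all. The log2 change was 1.80 ± 0.19 in KO (1.50 without that library) and 1.13 ± 0.19 in WT. INSIG1, a target of SREBPs, peaked at 6 h, at 59.9, 61.00 and 53.6 CPM in KO, against 22.03, 25.01 and 25.3 CPM at 0 h, and at 67.6, 64.8 and 67.5 CPM in WT, against 51.5, 33.3 and 27.8 CPM at 0 h. The log2 change was 1.35 ± 0.16 in KO and 1.01 ± 0.16 in WT, with no overlap. SREBF2 changed by 0.19, -0.12 and 0.06 in KO and 0.20, 0.09 and 0.29 in WT, none of them called. In KO it was at 212, 225 and 365 CPM at 3 h, against 237, 233 and 235 CPM at 0 h. Only library 3 of KO 3 h thus lay above the 0 h libraries. STARD4 was lower at 3 h in both, with log2 changes of -0.42 in KO and -0.60 in WT (adjusted p = 0.000217 and 4.06e-06), and was not called later. SCAP was called in KO only, higher at 3 h (0.37; adjusted p = 0.162 without KO 3 h library 3) and lower at 48 h (-0.35), the 48 h call ending when libraries 2 or 3 of the 0 h group or 1 or 2 of the 48 h group were left out singly (adjusted p up to 0.121), and no interaction was called for it.

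**Figure D3:**
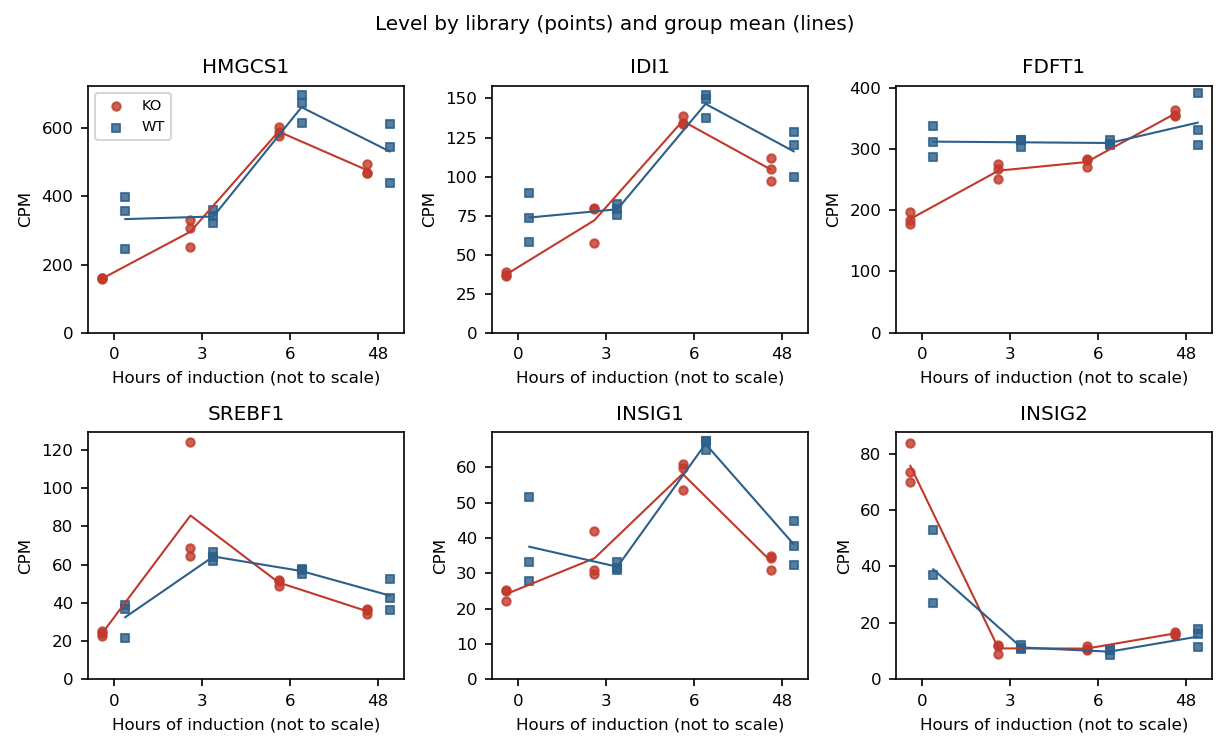
CPM of HMGCS1, IDI1, FDFT1, SREBF1, INSIG1 and INSIG2 by hour of induction (hours not to scale), with a point for each library and lines through the means of KO (circles) and WT (squares). HMGCS1 and IDI1 peak at 6 h in both, FDFT1 is nearly level in WT and below it in KO until 6 h, and INSIG2 is highest at 0 h in KO, at 83.8, 73.4 and 69.96 CPM.

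The change over induction itself differed between KO and WT for 7 genes at 3 h, 7 at 6 h and 4 at 48 h, in each case with the higher log2 change in KO. Over all genes this interaction was called for 9.04%, 8.58% and 7.76%, with 3.59%, 3.12% and 3.84% of all genes in the direction of a larger rise or smaller fall in KO. For HMGCS1 the rise in KO exceeded that in WT by 0.78 ± 0.19, 0.83 ± 0.19 and 0.86 ± 0.19 on the log2 scale at 3, 6 and 48 h (adjusted p = 0.00997, 0.00677 and 0.00551). For IDI1 it did so by 0.76, 0.80 and 0.78, and for FDFT1 by 0.46, 0.55 and 0.78. SQLE (0.52) was called at 3 h, MSMO1 (0.53 and 0.56), FADS1 (0.36 and 0.44) and FADS2 (0.35 and 0.37) at 3 h and 6 h, ELOVL6 (0.36) at 6 h and DHCR7 (0.33) at 48 h. The interaction and the difference at 0 h share the libraries of 0 h, and each of these genes was lower in KO at 0 h, so that the 2 results are not independent. At 3 h HMGCS1 averaged 297 ± 40.8 CPM in KO and 341 ± 19.4 CPM in WT, and at 0 h 159 ± 2.73 CPM in KO and 334 ± 79.4 CPM in WT (SD, n = 3 each).

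HMGCS1 and IDI1 kept the interaction call at all 3 hours, and FDFT1 at 6 h and 48 h, when any 1 of the 24 libraries was left out. The count at 3 h was 13 without WT 0 h library 1, 2 without WT 3 h library 1, 3 when library 2 of WT 0 h or of WT 3 h or either of libraries 1 and 2 of KO 0 h was left out, and 4 for library 2 of KO 3 h, libraries 1 and 2 of WT 6 h, libraries 1 and 3 of KO 6 h and each of KO 48 h. At 6 h it was 4 without WT 0 h, KO 0 h or KO 6 h library 2, and at 48 h it was 9 without WT 0 h library 1. With library 1 as the only WT library of 0 h, HMGCS1 at 6 h was 0.42 (adjusted p = 0.157) and IDI1 0.49 (adjusted p = 0.108), neither called, while FDFT1 was 0.56 and called (adjusted p = 0.00856). Of the 13 at 3 h without WT 0 h library 1, 12 had the higher change in KO and PMVK the lower. Without the 3 libraries that stood apart, 18, 19 and 17 genes were called at 3, 6 and 48 h, of which 16, 17 and 14 had the higher change in KO. The other 2, 2 and 3 had the lower change in KO, and were SREBF2 at all 3 hours (-0.36, -0.31 and -0.30), PMVK at 3 h and 6 h (-0.35 and -0.44), and SCAP (-0.25) and SC5D (-0.23) at 48 h.

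**Figure D4:**
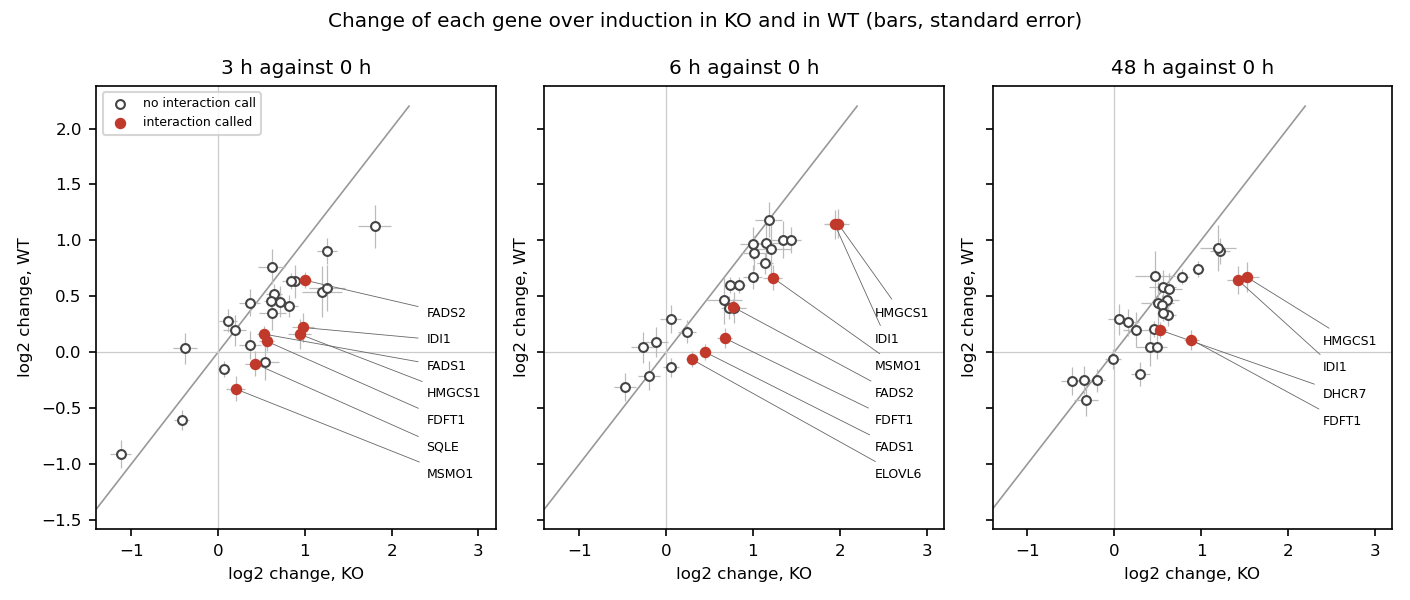
Log2 change against 0 h of each of the 28 genes in KO (horizontal axis) and in WT (vertical axis) at 3, 6 and 48 h (panels), with bars for standard errors, a line of equal change and filled points for an interaction with an adjusted p under 0.05. The filled points lie below the line, HMGCS1 and IDI1 farthest to the right at 6 h, at 1.98 and 1.94 in KO against 1.15 and 1.14 in WT.

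Among other genes of sterol sensing, INSIG2, the second INSIG gene, went the opposite way to INSIG1 at 0 h. INSIG2 was at 83.8, 73.4 and 69.96 CPM in KO, against 52.9, 27.04 and 36.9 CPM in WT, with all KO libraries above all WT libraries (log2 difference 1.06 ± 0.18, adjusted p = 0.000277). The call held when any 1 library was left out and ended when the spread came from the 0 h libraries only (adjusted p = 0.104) or library 1 was the only WT library of 0 h (log2 difference 0.56, adjusted p = 0.0544). At 3 h INSIG2 was at 11.95, 11.9 and 8.82 CPM in KO and 10.9, 10.6 and 12.2 CPM in WT, below all libraries of 0 h (log2 change -2.73 in KO and -1.62 in WT). Of 12 genes of SREBP processing and sterol sensing tested, 2 were higher and 1 lower in KO at 0 h, against 8.76% higher and 6.52% lower over all genes. The genes beside INSIG2 were MBTPS2, which encodes a protease that activates SREBPs (0.49, adjusted p = 0.0148; 0.0886 without WT 0 h library 1), and PAQR3 (-0.38), whose call ended without any 1 of 17 libraries (adjusted p of 0.0565 to 0.142). At 48 h MBTPS2 was at 60.8, 58.9 and 57.3 CPM in KO, against 37.8, 36.3 and 27.5 CPM in WT (log2 difference 0.83, adjusted p = 0.000108). It was the one gene of the 12 called there, near the share of 11.9% called over all genes. None of the 12 was called at 3 h or 6 h, against 2.78% and 2.45% of all genes.

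Of 12 genes of sterol uptake, transport and storage, SCARB1, an HDL receptor, was higher (0.32) and LIPA, the lysosomal acid lipase, lower in KO at 0 h (-0.30). These calls were near the shares over all genes, 8.76% higher and 6.52% lower. LIPA was also lower at 3 h (-0.37, adjusted p = 0.0112) and 6 h (-0.33, adjusted p = 0.0346), with 38.2, 39.5 and 40.6 CPM in KO, against 48.7, 49.3 and 51.2 CPM in WT, at 6 h. Its calls ended when any 1 of 2, 4 and 10 libraries was left out at 0, 3 and 6 h (adjusted p up to 0.128, 0.0732 and 0.233). SOAT1, which esterifies cholesterol for storage, had the largest change over induction of the genes in these lists that were tested. In KO it was at 118, 117 and 95.6 CPM at 3 h, against 6.50, 6.76 and 7.77 CPM at 0 h. In WT it was at 93.4, 94.6 and 96.5 CPM at 3 h, against 7.57, 7.87 and 7.31 CPM at 0 h. Those groups lay far apart, with log2 changes of 3.97 ± 0.10 in KO and 3.70 ± 0.10 in WT. At 48 h SOAT1 was lower in KO, at 23.5, 24.5 and 24.6 CPM, against 32.3, 39.6 and 28.8 CPM in WT (log2 difference -0.44, adjusted p = 0.00269).

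Of 10 LXR and oxysterol genes, 2 were higher and 1 lower in KO at 0 h, against 8.76% and 6.52% of all genes. ABCA1, a cholesterol exporter, was at 50.3, 37.2 and 33.00 CPM in KO, against 30.3, 18.2 and 21.9 CPM in WT (log2 difference 0.83, adjusted p = 0.0452), a call that ended without any 1 of 18 libraries (adjusted p up to 0.206). CYP27A1, the sterol hydroxylase of mitochondria, was at 19.7, 20.7 and 20.96 CPM in KO, against 29.01, 5.04 and 5.33 CPM in WT, where library 1 was above all KO libraries and the others below. It was called higher by limma (adjusted p = 0.0343) and not by edgeR or DESeq2 on the recovered reads (adjusted p = 0.26 and 0.307), and its difference was -0.45 with library 1 as the only WT library. LPCAT3, which loads polyunsaturated fatty acids into phospholipids, was lower in KO at 0 h (-0.35, adjusted p = 0.02) and 48 h (-0.36, adjusted p = 0.0169), calls that ended without any 1 of 5 libraries at 0 h and of 10 at 48 h. CYP7B1, an oxysterol hydroxylase, was lower in KO at 48 h (-0.77, adjusted p = 0.00367). Of 21 other fatty acid genes, 6 were lower and 1 higher in KO at 0 h, against 6.52% and 8.76% of all genes. The acyl-CoA synthetase genes ACSL4 and ACSL3 led them, with ACSL3 at 104, 101.2 and 98.9 CPM in KO, against 120.1, 174 and 157 CPM in WT (log2 difference -0.50, adjusted p = 0.00286) and ACSL4 at -0.39 (adjusted p = 0.00218). The other calls of this list at 0 h each ended without any 1 of 4 to 18 libraries, depending on the gene (adjusted p up to 0.262). MID1IP1, which promotes the polymerisation of acetyl-CoA carboxylase, was lower in KO at 6 h, at 99.6, 92.9 and 83.3 CPM, against 132, 159 and 134 CPM in WT (log2 difference -0.61), and higher in KO at 48 h, at 221, 224 and 228 CPM, against 139, 127 and 162 CPM in WT (0.68). Of 13 other sterol and isoprenoid enzymes, DHDDS, of dolichol synthesis, was lower in KO at 0 h (-0.25, adjusted p = 0.0181), near the share of 6.52% lower over all genes. None of the 13 was called at the later hours, against 2.78%, 2.45% and 11.9% of all genes at 3, 6 and 48 h. With the spread taken from the 0 h libraries only, DHDDS, MBTPS2, PAQR3, SCARB1, LIPA, ABCA1, CYP27A1, LPCAT3, ACSL3 and ACSL4 were not called at 0 h either.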

How the data were processed

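RNA-seq of 24 libraries (8 groups of 3) was used. The deposited gene table holds CPM: every column has the same total, and values are not divided by gene length. The submitters' processing notes name hg38 and DESeq2 with no role, with aligner, counter, annotation release and use of strand not given in the sources used here. In addition, the authors' second deposited table, of counts per transcript, was used only to check columns: the gene table's header is shifted by 1 cell, and with the shift undone 24 of 24 libraries matched their own group best and 21 their own name, the other 3 matching another library of their group. Whole reads were recovered from the CPM steps for 100% of values within 0.1 read. Totals were 29896358 to 50451908 reads, so that 3 reads correspond to 0.0595 to 0.100 CPM, which covers counting error only.

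CPM was divided by TMM factors (edgeR 4.0.16) and tested with limma 3.58.1 with an intensity trend in R 4.3.3 on log2(CPM + 0.25), in 1 fit of all 8 groups over the 19835 genes kept by edgeR's filter on low values. Tests were two-sided, with Benjamini-Hochberg adjustment over all genes within each comparison, and the threshold for a call was an adjusted p of 0.05. Fold changes on this scale understate changes of low genes. Alternatives were other scalings, pseudocounts and filters, edgeR's quasi-likelihood test and DESeq2 1.42.0 on the recovered reads, a replicate block, a fit of only the groups compared and leaving out libraries. Counts under these alternatives are given without the share over all genes. The script was tested on simulated data. Gene names and positions came from GENCODE 29. The genes, their lists and the tests were chosen with earlier results of these data known. Genes of the other lists were named by a rule of up to 3 called per list and comparison, by smallest adjusted p. No 2 libraries were identical.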

Additional observations from a re-analysis of the deposited data

Results flagged for a closer look

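The change over induction differed between KO and WT, by limma's interaction term, for 18 pairs of gene and hour, each with the higher log2 change in KO (difference of log2 changes, KO minus WT). At 3 h the difference was 0.78 for HMGCS1, 0.76 for IDI1, 0.46 for FDFT1, 0.52 for SQLE, 0.53 for MSMO1, 0.36 for FADS1 and 0.35 for FADS2. At 6 h it was 0.83 for HMGCS1, 0.80 for IDI1, 0.55 for FDFT1, 0.56 for MSMO1, 0.36 for ELOVL6, 0.44 for FADS1 and 0.37 for FADS2. At 48 h it was 0.86 for HMGCS1, 0.78 for IDI1, 0.78 for FDFT1 and 0.33 for DHCR7, the last with an adjusted p of 0.0498, against 0.0665 with edgeR and 0.0537 with a pseudocount of 0.1. All of them use the 0 h libraries of WT, of which library 1 stood apart.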

How the results depend on the processing

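Of 13104 values of the 28 genes under 36 other settings, 12535 stayed on the same side of the threshold. A call was lost for 330 and gained for 239, and 0 called values changed sign. Values that were not called could change sign. SREBF1 at 0 h did so, from -0.33 to 0.19 with WT 0 h library 1 as the only WT library. Among genes of the other lists, CYP27A1 (-0.45) and ELOVL2 (0.029) changed sign at 0 h with WT 0 h library 1 as the only WT library, a setting chosen after seeing the data. With the spread taken from only the groups compared, called genes numbered 2 and 8 for KO against WT at 0 and 6 h, 7 for WT at 48 h and 0 and 2 for the interaction at 3 and 48 h. At 3 h 1 gene was called between KO and WT with at least 5 CPM, with DESeq2 and with WT 0 h library 1 alone. The interaction then had 3 genes at 3 h and 3 at 6 h with that library alone, and 11 at 3 h with DESeq2. Without a filter the count was 1 at 48 h and 4 for the interaction at 3 h. Without the 3 libraries that stood apart, KO against WT gave 23, 5, 4 and 7 genes at 0, 3, 6 and 48 h, with 3 and 2 of them higher in KO at 0 and 48 h, and the interaction 18, 19 and 17 at 3, 6 and 48 h, with 2, 2 and 3 of them lower in KO. The cause of these differences was not tested.

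Leaving out any 1 library gave 11 to 17, 0 to 1, 0 to 0 and 0 to 6 genes for KO against WT at 0, 3, 6 and 48 h. For changes against 0 h it gave 22 to 25, 22 to 24 and 17 to 23 genes in KO and 13 to 20, 16 to 21 and 13 to 21 in WT at 3, 6 and 48 h. For the interaction it gave 2 to 13, 4 to 10 and 3 to 9. Replicate numbers did not pair the libraries (8 of 84 same-numbered pairs had r over 0.1). With the replicate number as a block, KO against WT gave 14, 0, 0 and 2 genes, changes in KO 24, 22 and 21, changes in WT 17, 20 and 16, and the interaction 7, 7 and 3.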
